A study of Mus musculus with 21 samples.

Results

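The heat shock chaperone genes examined here were Hspa8, Hspa1a, Hspa1b, Hsph1, Dnaja1, Dnajb1, Hsp90aa1, Hsp90ab1, Hspd1 and Hspe1, listed in the table in capitals as HSPA8, HSPA1A, HSPA1B, HSPH1, DNAJA1, DNAJB1, HSP90AA1, HSP90AB1, HSPD1 and HSPE1. They were chosen by name, and all 10 were among the 23415 gene symbols of the table. They were followed in the 16 of 21 RNA libraries in which at least 7000 genes reached 1 TPM (the abundance of a transcript for its length, scaled to a common library total). Of the 10 genes, 9 reached 1 TPM in at least 3 of the 16 libraries and are among the 9592 genes that were tested. Hspa1b did not reach that level, and its values are given without a test.

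The libraries came from CD4 T cells of mice heterozygous for a reporter allele of the IL-23 receptor gene (Il23r wt/eGFP), an allele that all groups shared, controls included. Naive cells (CD44 low, CD62L high, CD25 negative) from spleen and lymph nodes were stimulated for 5 days with plate-bound antibodies against CD3 and CD28. The cytokines were IL-12 (20 ng/ml), IL-12 with IL-21 (20 ng/ml each), IL-1b (20 ng/ml) with IL-6 (25 ng/ml) and IL-23 (20 ng/ml), or TGF-b (2 ng/ml) with IL-6 (25 ng/ml). Cells were then sorted into eGFP-positive (GFPpos) and eGFP-negative (GFPneg) cells, IL-12 alone being represented by GFPneg cells only, and 3 libraries were labelled for each of the 7 groups. The sort reports transcription of the Il23r locus. As background, the reporter allele encodes no functional receptor, so the cells rely on the wild-type allele for IL-23 signalling. The age and sex of the mice, and whether replicates came from separate animals or cultures, are not given in the sources used here, and so p-values measure the spread between libraries alone, and that spread may be technical.

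Heat shock chaperones bind unfolded proteins and help them to fold, to be carried across membranes or to be degraded. Some members of each family are made at all times and others are switched on by the transcription factor HSF1 when unfolded proteins build up, through heat shock elements, inverted repeats of the bases GAA and TTC in their promoters. Activated T cells grow and divide quickly, and several kinases and transcription factors of these cells are clients of HSP90. HSP70 proteins (Hspa8, Hspa1a, Hspa1b) hold stretches of unfolded protein, J-domain proteins (Dnaja1, Dnajb1) deliver clients to them, and Hsph1 makes them exchange their nucleotide and release the client. HSP90 (Hsp90aa1, Hsp90ab1) acts later on nearly folded clients. Hspd1 and Hspe1 form the barrel and the lid of the mitochondrial folding chamber.

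Among the 16 libraries, 7522 to 9248 genes reached 1 TPM, and ribosomal protein genes held 31.4% to 42.2% of all TPM. The other 5 libraries (IL-12 GFPneg replicate 1, IL-12+IL-21 GFPneg replicate 3, TGFb+IL-6 GFPneg replicate 3 and TGFb+IL-6 GFPpos replicates 2 and 3) had 190 to 5608 genes at 1 TPM. With all 21 libraries in the fit, 0 chaperone genes were called in any comparison. This left 1 library of TGFb+IL-6 GFPpos, 2 each of IL-12 GFPneg, IL-12+IL-21 GFPneg and TGFb+IL-6 GFPneg, and 3 of each other group. All 7 CD4 T cell markers were present, with a summed level of 1600 to 2780 TPM. The B cell transcription factor gene Pax5 was at 0, while other B cell markers were above 0 in some libraries, each under 1 TPM. The 6 myeloid markers summed to at most 2.52 TPM (Lyz2 and Itgax at 0), the 3 natural killer cell markers to at most 2.25 (Klrb1c and Ncr1 at 0) and the 4 erythroid and neutrophil markers to at most 1.05 (Hbb-bs, S100a8 and S100a9 at 0). Of the CD8 T cell markers, Cd8a reached at most 0.29 TPM and Cd8b1 lay between 4.89 and 17.5 TPM.

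Promoter sequences from RefSeq (GRCm38.p6) were available for 7 of the 10 genes, Hspa8, Hsp90aa1 and Hsp90ab1 being the others. The stretches below show where these genes carry heat shock elements and how alike the Hspa1a and Hspa1b promoters are. Capitals mark an element of 2 units, GAANNTTC or TTCNNGAA, each of which reads the same on both strands. Hspa1a and Hspa1b are followed from 150 bases before the gene start up to it, on the minus strand (chr17:34972157-34972306 and chr17:34959239-34959388). The other 3 are sites of 30 bases, which overlap annotated exons and are cut short for that reason: one between a RefSeq start of Hspd1 and that of Hspe1 (chr1:55088053-55088082, plus strand), one of Hsph1 (chr5:149636351-149636380, minus strand) and one of Dnaja1 (chr4:40722333-40722362, plus strand).
Hspa1a: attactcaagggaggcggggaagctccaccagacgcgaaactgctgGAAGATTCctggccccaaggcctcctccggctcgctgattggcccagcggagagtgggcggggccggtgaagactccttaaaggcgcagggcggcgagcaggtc
Hspa1b: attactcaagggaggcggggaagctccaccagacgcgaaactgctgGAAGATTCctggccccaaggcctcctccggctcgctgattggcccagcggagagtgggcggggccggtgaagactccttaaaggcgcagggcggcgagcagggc
Hspd1-Hspe1: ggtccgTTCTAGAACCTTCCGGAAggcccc
Hsph1: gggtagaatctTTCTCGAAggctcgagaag
Dnaja1: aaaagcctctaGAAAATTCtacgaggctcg

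The Hspa1a and Hspa1b stretches differed at 1 of their 150 bases, and the 250 bases before both starts differed at 3. Both genes lie on the minus strand of chromosome 17, Hspa1a from 34969190 to 34972156 and Hspa1b from 34956436 to 34959238 (GENCODE M21), so their starts are 12918 bases apart. The Hspd1-Hspe1 site held 3 overlapping elements, which make 2 elements of 3 units (GAANNTTCNNGAA or TTCNNGAANNTTC, the reverse complement of one another). It is shared by both genes, which start head to head on chromosome 1 with 215 bases between the Hspd1 start used here and that of Hspe1, Hspd1 (55077835 to 55088243) on the minus and Hspe1 (55088132 to 55091307) on the plus strand. A second Hspd1 window, whose start (55088243) lies inside Hspe1 so that the site is not upstream of both, held 0 matches. The Dnaja1 element was in 1 of 3 windows of that gene. The windows of Hsph1 held 2 further overlapping matches after the gene start, which make 1 element of 3 units and are not printed. Neither of the 2 windows of Dnajb1 held either motif. Of 32851 promoter windows of 300 bases in the table, 15.1% held the motif of 2 units and 0.603% the motif of 3 units, so the shorter motif by itself is common.

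Close copies limit what can be told apart from reads of 38 bases, where the authors' annotation, which is not given, held those copies. The shares here were counted in the transcripts of GENCODE M21. Of the 38-base stretches of the longest Hspa1a transcript, 61.8% also occur in Hspa1b. For Hspa8, 75.7% occur in transcripts of other genes, mostly the pseudogene Gm15459 (72.7%), and for Hsp90aa1 61.1%, mostly Gm12346 (54.8%). The shares were 50.8% for Hspd1, 43.0% for Hspe1, 19.9% for Dnaja1, 9.4% for Hsp90ab1, 0.8% for Dnajb1 and 0% for Hsph1. Read assignment between these copies was made by the authors' software, and the values of Hspa1a and Hspa1b are therefore uncertain as separate values. Summing both left the calls of Hspa1a reported below in place.

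The chaperones made up 0.665% to 1.2% of all TPM in the 16 libraries, and Hspa8 alone 58.9% to 66.9% of their sum. By median TPM, a scale that allows for transcript length, the order was Hspa8, Hsp90ab1, Hspe1, Hspd1, Hsp90aa1, Dnaja1, Hsph1, Dnajb1, Hspa1a and Hspa1b. Hspa8, the constitutive HSP70 gene, ranked 42nd of 9592 genes and Hsp90ab1, the constitutive HSP90 gene, 119th. The stress-inducible Hspa1a, with a median of 3.97 TPM, ranked 5409th. In both families the constitutive gene thus lay above the inducible one.

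**Figure D1:**
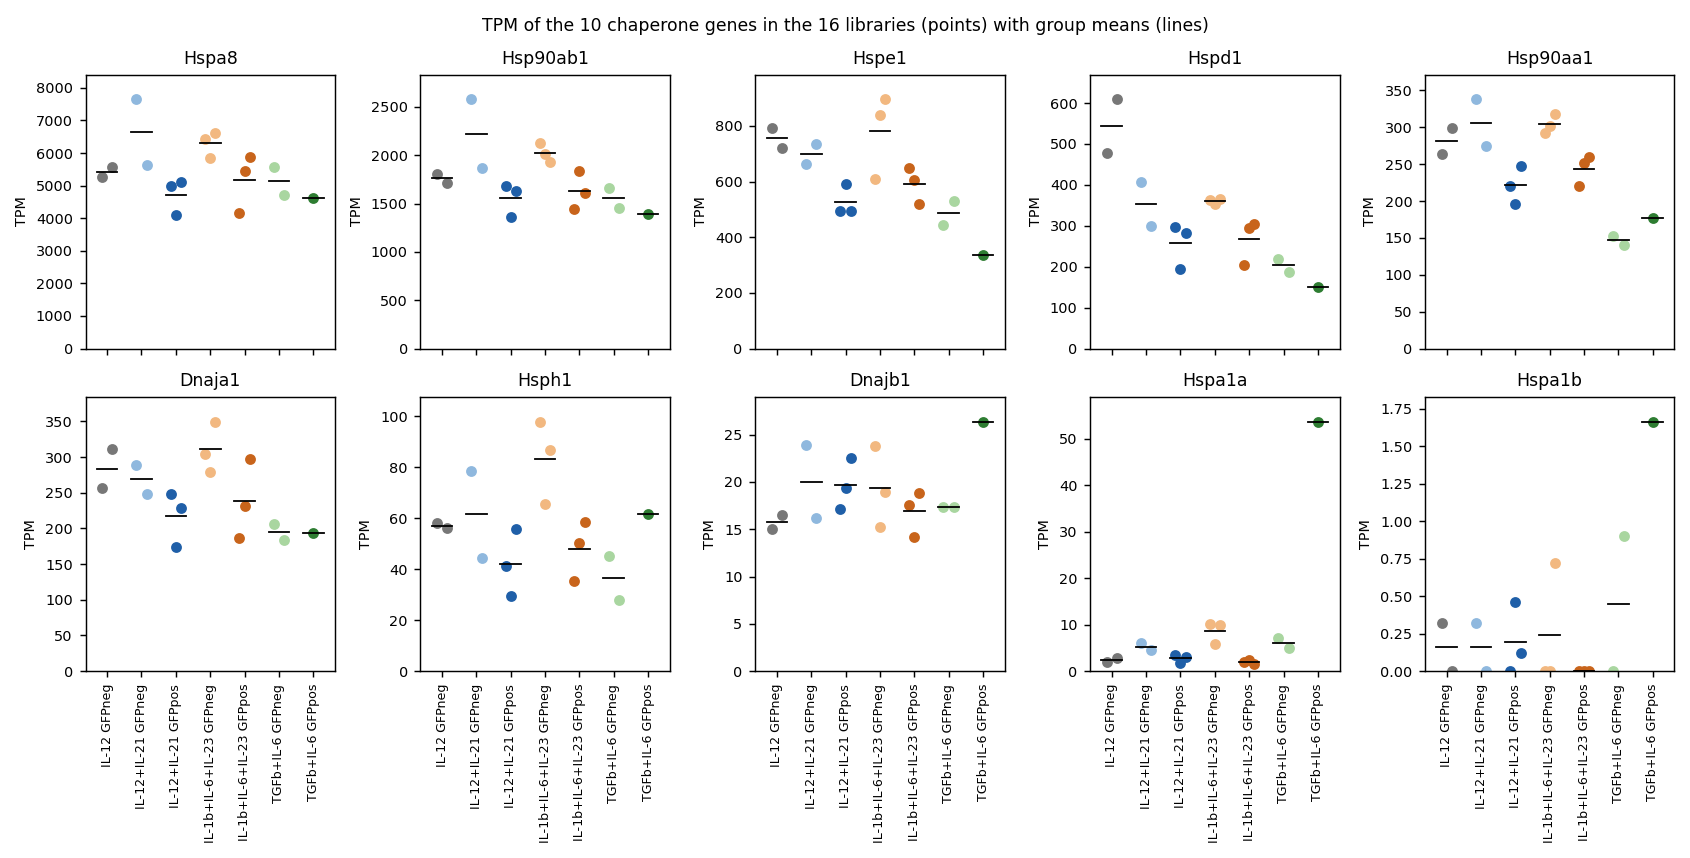
TPM (vertical axis, from 0) of each of the 10 chaperone genes in the 7 groups, with 1 point per library (16 in all) and a line at the group mean. Most genes span less than a few-fold across groups, while Hspa1a stands at 53.6 TPM in the TGFb+IL-6 GFPpos library and at 1.5 to 10.1 TPM in the other 15.

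Hspa8, on the plus strand of chromosome 9 (40800984 to 40810087), was at 5265 and 5564 TPM in IL-12 GFPneg, at 7644 and 5646 in IL-12+IL-21 GFPneg and at 4979, 4087 and 5109.9 in IL-12+IL-21 GFPpos. With IL-1b+IL-6+IL-23 its values were 6444, 5855 and 6619.9 TPM in GFPneg and 4170.2, 5453 and 5879 in GFPpos, and with TGFb+IL-6 it was at 5559.7 and 4721 in GFPneg and 4623 in GFPpos. The highest and lowest library differed by 1.87-fold, and with the groups in order of their means 5 of the 6 neighbouring pairs overlapped. Hspa8 passed the test in none of the 10 comparisons between groups.

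Hsp90ab1 (chromosome 17, 45567775 to 45573271, minus strand) ranged from 1361 TPM in an IL-12+IL-21 GFPpos library to 2577 in an IL-12+IL-21 GFPneg library, a range of 1.89-fold, and passed in none of the 10 comparisons. Dnajb1 (chromosome 8, 83608193 to 83612653, plus strand), the J-domain partner best known from heat shock, ranged from 14.2 to 26.3 TPM, the highest value being that of the TGFb+IL-6 GFPpos library, and passed in none either. Hspa1b was above 0 in 7 of 16 libraries and reached 1.66 TPM in the TGFb+IL-6 GFPpos library, its highest value, against at most 0.9 in the others. All 3 GFPpos libraries of IL-1b+IL-6+IL-23 list it at 0.

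In IL-12+IL-21 cultures, cells that transcribed the reporter had lower values of the chaperones than GFPneg cells in all 9 tested genes, by 0.01 to 0.74 on the log2 scale, but no single gene passed the test across all genes. The constitutive HSP90 gene Hsp90ab1 had values of 1677, 1361 and 1628 TPM in GFPpos and of 2577 and 1866 in GFPneg, and these libraries did not overlap (log2 difference -0.50 ± 0.15 SE; adjusted p = 0.154 by limma). Hsp90aa1, the inducible HSP90 gene, was at 220.2, 197 and 247 TPM against 338 and 275 (-0.47 ± 0.15; adjusted p = 0.194). The Hsp90ab1 difference was -0.27 without IL-12+IL-21 GFPneg replicate 1 and -0.73 without replicate 2, and that of Hspa8 -0.26 and -0.70. Hspa8 (-0.48 ± 0.16) and Hspe1 (-0.41 ± 0.17), the co-chaperonin, also lay lower without overlap, as did Hspa1a (-0.74 ± 0.30) and Hspd1 (-0.46 ± 0.22).

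Of the 9 genes, 0 were called in IL-12+IL-21 at an adjusted p under 0.05 (limma, Benjamini-Hochberg over 9592 genes), where 0.156% of all genes were, and 5 had an unadjusted p under 0.05 and a lower value, where 1.92% of all genes did. In 6 of the 9 the GFPpos libraries all lay below the GFPneg libraries, where 3.93% of all genes did. The median difference of the 9 was -0.465, against 0.244 over all tested genes, of which 25.1% were below 0. The calls over all genes were 11 up and 4 down, but 3 up and 6 down after median-ratio scaling, which put the median of all genes at 0.013 and that of the chaperones at -0.752. Ribosomal protein genes held 33.7% and 39.0% of TPM in GFPneg and 33.6%, 39.1% and 32.9% in GFPpos libraries. In bulk RNA, fewer cells with a transcript and less transcript per cell cannot be told apart.

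**Figure D2:**
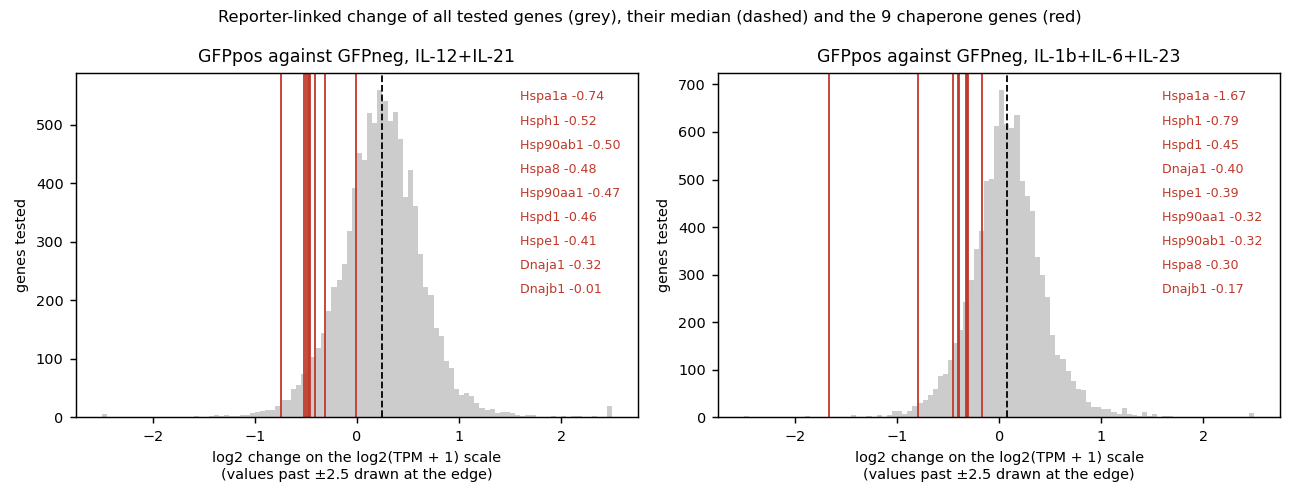
Histograms of the log2 change from GFPneg to GFPpos (horizontal axis, log2(TPM + 1) scale) over the 9592 tested genes (vertical axis, number of genes) with IL-12+IL-21 (left) or IL-1b+IL-6+IL-23 (right), with the median of all genes as a dashed line and each of the 9 chaperones as a red line with its value. All 9 lie below 0 in both panels, and Hspa1a is the lowest in both, at -0.74 and -1.67.

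In the IL-1b+IL-6+IL-23 cultures, Hspa1a was the one chaperone gene that fell in GFPpos cells. It was at 10.1, 5.86 and 9.86 TPM in GFPneg and at 2.02, 2.44 and 1.5 TPM in GFPpos libraries. Every GFPneg library lay above every GFPpos library, with means of 8.62 ± 2.39 and 1.99 ± 0.471 TPM (SD, n = 3 each). The fall was 1.67 ± 0.27 (SE) on the log2(TPM + 1) scale, where changes of genes this low come out too small (adjusted p = 0.00951, limma). The call was lost without GFPneg replicate 1 (adjusted p = 0.0614), GFPneg replicate 3 (0.0506) or GFPpos replicate 3 (0.0782), and the change was between -1.89 and -1.54 with any 1 of the 6 libraries left out.

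The other chaperones of IL-1b+IL-6+IL-23 lay in the same direction and did not pass. Hsph1, the exchange factor of HSP70, was at 97.7, 65.5 and 86.6 TPM in GFPneg and at 35.4, 50.2 and 58.4 TPM in GFPpos libraries, without overlap (-0.79 ± 0.28; adjusted p = 0.399). Hspd1 was at 364, 354 and 365 TPM against 203, 294 and 303 (-0.45 ± 0.19), a GFPneg group that varied little beside a GFPpos group that varied more. The difference was -0.27 without GFPpos replicate 1. Of the 9 genes, 1 was called, where 0.427% of all genes were, 7 had an unadjusted p under 0.05 and a lower value, where 2.72% did, and 5 lay lower without overlap, where 4.7% did. The median of the 9 was -0.391, against 0.074 over all genes, of which 39.9% lay below 0. Immediate early genes, which respond within minutes to receptor signals and to handling, summed to 1150 to 1650 TPM in GFPneg and 1080 to 1390 in GFPpos libraries. Their part in the result was not tested.

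In TGFb+IL-6, where the GFPpos group was a single library, Hspa1a went the other way. It was at 53.6 TPM in the GFPpos library and at 7.1 and 5.04 in the GFPneg libraries, and it rose by 2.97 ± 0.41 on the log2 scale (adjusted p = 0.00809, limma, which here assumes that the lone library varied like those of the other groups). The adjusted p was 0.0198 and 0.0456 without either GFPneg library. In the 2 GFPpos libraries left out for their low gene number, Hspa1a was at 5.16 TPM (replicate 2) and listed at 0 (replicate 3). Replicate 3 listed the abundant Hspe1 at 0 as well and had 1157 genes above 0, so its 0 is no measure of the level. Replicate 2 listed Hspa8 at 193 TPM, against 4623 in the GFPpos library used, and ribosomal protein genes held 56.1% of its TPM. Its value of 5.16 is therefore no sure measure of the level either. Hspa1b was highest in the GFPpos library used.

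Of the remaining chaperones in TGFb+IL-6, Hsph1 had 61.7 TPM in the GFPpos library against 45.0 and 27.8 in GFPneg, and Dnajb1 had 26.3 against 17.4 and 17.3 TPM. The mitochondrial pair lay the other way, Hspe1 at 338 TPM against 443 and 529 and Hspd1 at 151 against 219 and 188 TPM. These 4 differences did not pass (adjusted p = 0.346, 0.366, 0.272 and 0.469 by limma). In all, 1 of 9 was called, where 0.323% of all genes were, and 4 lay higher and 4 lower without overlap, where 63.7% and 14% of all genes did. The median of the 9 was -0.005 beside 0.368 for all genes, and -0.485 beside 0 with median-ratio scaling. As deposited 5 of the 9 lay below 0. With that scaling 6 did, Hsp90aa1 turning from 0.267 to -0.212, while Hsph1 (0.313) and Dnajb1 (0.115) stayed above 0. Immediate early genes summed to 950 TPM in the GFPpos library and to 826 and 520 TPM in the GFPneg libraries.

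The change of Hspa1a with the reporter in TGFb+IL-6 differed from that in both other cultures. The GFP difference in TGFb+IL-6 exceeded that in IL-1b+IL-6+IL-23 by 4.63 ± 0.49 on the log2 scale (adjusted p = 0.000754; 0.0834% of all genes called), and stayed called with any 1 of 8 libraries left out. It exceeded that in IL-12+IL-21 by 3.71 ± 0.51 (adjusted p = 0.0209), and Hspa1a was the single gene of 9592 called in that comparison (0.0104%). That second call held in 2 of 7 fits with a library left out. It was lost without TGFb+IL-6 GFPneg replicate 1 (adjusted p = 0.0525) or 2 (0.183), IL-12+IL-21 GFPneg replicate 1 (0.166) or 2 (0.0674), or IL-12+IL-21 GFPpos replicate 2 (0.052). Both differences rest on the 1 TGFb+IL-6 GFPpos library. That library could not be left out, since neither difference can be formed without it, so these fits do not show how far the calls depend on it. Between IL-1b+IL-6+IL-23 and IL-12+IL-21 0% of genes were called by limma, with 474 genes (4.94%) at an unadjusted p under 0.05. Hspa1a was among these, with a difference of -0.92 ± 0.41 (adjusted p = 0.976).

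**Figure D3:**
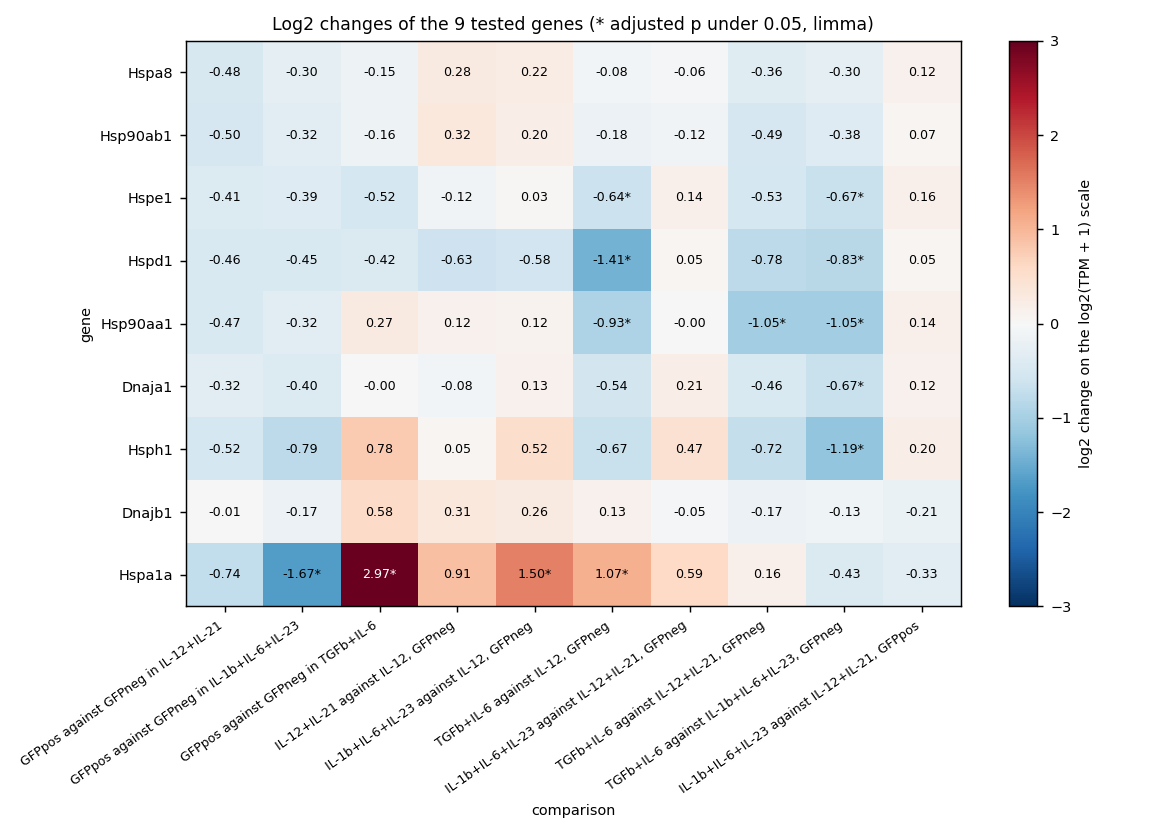
Log2 change (colour and printed value, log2(TPM + 1) scale) of the 9 tested chaperone genes (rows) in the 10 comparisons between groups (columns), with an asterisk where limma's adjusted p was under 0.05. The Hspa1a row holds changes of both signs, and the asterisks of the other genes lie in the 3 columns of TGFb+IL-6 against another culture.

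Among GFPneg cells, Hsp90aa1 was lower in the TGFb+IL-6 culture than in each of the 3 other cultures. Hsp90aa1 (chromosome 12, 110690605 to 110702728, minus strand) was at 153 and 141 TPM in TGFb+IL-6 GFPneg. It was at 264 and 299 TPM in IL-12, at 338 and 275 in IL-12+IL-21, and at 293, 302 and 319 with IL-1b+IL-6+IL-23. The 2 TGFb+IL-6 libraries were the lowest of all 16, and the TGFb+IL-6 GFPpos library, at 177 TPM, was the next lowest.

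Hsp90aa1 fell by 0.93 ± 0.17 against IL-12 (adjusted p = 0.00114), by 1.05 ± 0.17 against IL-12+IL-21 (adjusted p = 0.000708) and by 1.05 ± 0.15 against IL-1b+IL-6+IL-23 (adjusted p = 0.00018, limma). These 3 comparisons share the TGFb+IL-6 libraries. Each call held with any 1 library left out and with median-ratio scaling (-0.49, -0.75 and -0.74), and was lost with all 21 libraries. With that scaling the call against IL-12 lay close to the threshold (adjusted p = 0.0479, limma). Hsp90ab1, the constitutive HSP90 gene, was at 1660.1 and 1459 TPM in the same libraries and did not pass against any of the 3 (adjusted p = 0.479, 0.0894 and 0.105).

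The mitochondrial chaperonin genes were also lower in TGFb+IL-6. Hspd1 was at 219 and 188 TPM in TGFb+IL-6 GFPneg, at 478 and 609 in IL-12, at 406 and 299 in IL-12+IL-21, and at 364, 354 and 365 with IL-1b+IL-6+IL-23. Hspd1 fell by 1.41 ± 0.24 against IL-12 (adjusted p = 0.000663), which is 2.65-fold, and by 0.83 ± 0.22 against IL-1b+IL-6+IL-23 (adjusted p = 0.0163). The second call was lost with median-ratio scaling (-0.52; adjusted p = 0.0792) and without TGFb+IL-6 GFPneg replicate 2 (0.164). Against IL-12+IL-21 its difference of -0.78 ± 0.24 did not pass (adjusted p = 0.0612). The IL-12 libraries were the highest in Hspd1 of all groups, and no other group overlapped them.

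Hspe1 was at 443 and 529 TPM in TGFb+IL-6 GFPneg, at 794 and 722 in IL-12, at 663 and 736 in IL-12+IL-21 and at 611, 839.6 and 895 with IL-1b+IL-6+IL-23. Hspe1 fell by 0.64 ± 0.19 against IL-12 (adjusted p = 0.0241), a call lost in each of the 4 fits with a library left out (adjusted p from 0.0518 to 0.15) and with median-ratio scaling (-0.20; adjusted p = 0.688). It fell by 0.67 ± 0.17 against IL-1b+IL-6+IL-23 (adjusted p = 0.0143), a call lost without TGFb+IL-6 GFPneg replicate 1 (0.13) or IL-1b+IL-6+IL-23 GFPneg replicate 3 (0.0591), and with median-ratio scaling (-0.36; adjusted p = 0.4). Against IL-12+IL-21 its difference of -0.53 ± 0.19 did not pass (adjusted p = 0.112).

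Against IL-1b+IL-6+IL-23, the HSP70 partners Hsph1 and Dnaja1 fell as well. Hsph1 (chromosome 5, 149614287 to 149636376, minus strand) was at 45.0 and 27.8 TPM against 97.7, 65.5 and 86.6. It fell by 1.19 ± 0.31 (adjusted p = 0.0163), a call lost without TGFb+IL-6 GFPneg replicate 2 (0.233) or IL-1b+IL-6+IL-23 GFPneg replicate 1 (0.0574). Dnaja1 (chromosome 4, 40722150 to 40737149, plus strand) was at 206 and 183 TPM against 304, 279 and 349, and fell by 0.67 ± 0.20 (adjusted p = 0.0353), a call that held in 1 of 5 fits with a library left out, the one without IL-1b+IL-6+IL-23 GFPneg replicate 2. With median-ratio scaling it was not called (-0.37; adjusted p = 0.203).

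In this comparison 5 of the 9 genes fell, where 15.4% of all genes were called in either direction and 10.6% fell, and 7 lay lower without overlap, where 31.2% did. All 9 were below 0, as were 66.7% of all genes, and with median-ratio scaling Hspa8 and Dnajb1 were above 0. The median of the 9 was -0.67 against -0.233 over all genes, and -0.365 against -0.009 with median-ratio scaling. That scaling turned the calls over all genes from 463 up and 1015 down to 835 up and 729 down, and left Hsp90aa1 and Hsph1 as the 2 members called. The count of 5 was 3 without TGFb+IL-6 GFPneg replicate 1 or IL-1b+IL-6+IL-23 GFPneg replicate 1 or 3, and 2 without TGFb+IL-6 GFPneg replicate 2. Ribosomal protein genes held 41.7% and 42.2% of TPM in the TGFb+IL-6 GFPneg libraries, the highest of the 16, against 31.7% to 37.4% in the GFPneg IL-1b+IL-6+IL-23 libraries. The part of this share in the result was not tested.

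Against IL-12, where 20.9% of all genes were called (488 up and 1512 down, or 918 up and 745 down after median-ratio scaling), 3 of the 9 fell (Hsp90aa1, Hspd1 and Hspe1) and 1 rose (Hspa1a), where 15.8% and 5.09% of all genes did. Without any 1 of the 4 libraries 2 members were called, Hsp90aa1 and Hspd1. Ribosomal protein genes held 31.5% and 31.4% of TPM in the IL-12 libraries. Against IL-12+IL-21, where 6.82% of all genes were called (193 up and 461 down, or 405 up and 365 down after median-ratio scaling), Hsp90aa1 was the 1 member called. Without IL-12+IL-21 GFPneg replicate 2 a second member, Hsp90ab1, was called (-0.73; adjusted p = 0.0301).

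Hspa1a was the member that rose between GFPneg cultures. It was at 1.92 and 2.78 TPM in IL-12, at 6.04 and 4.54 in IL-12+IL-21, at 10.1, 5.86 and 9.86 with IL-1b+IL-6+IL-23, at 7.1 and 5.04 in TGFb+IL-6, so the IL-12 libraries were the lowest of the GFPneg cells without overlap. Against IL-12 it rose by 1.50 ± 0.30 in IL-1b+IL-6+IL-23 (adjusted p = 0.00589), a call lost without IL-12 GFPneg replicate 2 (0.0712). In TGFb+IL-6 it rose by 1.07 ± 0.33 (adjusted p = 0.0324), a call lost in each of the 4 fits with a library left out (0.061 to 0.175). The TGFb+IL-6 call was also lost with a pseudocount of 5 (adjusted p = 0.0502, limma), without the filter (0.0511) and with only the libraries compared (0.0653). In IL-12+IL-21 the Hspa1a difference of 0.91 ± 0.33 did not pass (adjusted p = 0.227). These 3 comparisons share the IL-12 libraries.

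In IL-1b+IL-6+IL-23 against IL-12, Hspa1a was the 1 of 9 members called, where 7.01% of all genes were. No member was called by limma in IL-12+IL-21 against IL-12 (0.761% of all genes), where 2 members, Hspa1a and Hspd1, had an unadjusted p under 0.05, as had 13.7% of all genes. The same held for IL-1b+IL-6+IL-23 against IL-12+IL-21 in GFPneg cells (3.41% of all genes) and in GFPpos cells (4.96%), with 0 members at an unadjusted p under 0.05 in both, where 12.5% and 15.7% of all genes had one. In GFPpos cells of these 2 cultures the differences of the 9 lay between -0.33 (Hspa1a) and 0.20 (Hsph1).

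Within a library, the inducible and the constitutive gene of a family can be set side by side without the scaling between libraries. The ratio of Hsp90aa1 to Hsp90ab1 TPM was 0.0919 and 0.0965 in TGFb+IL-6 GFPneg and 0.127 in TGFb+IL-6 GFPpos, and between 0.131 and 0.174 in the other 13 libraries. The ratio thus lay lower in all 3 TGFb+IL-6 libraries than in any other. The ratio of Hspa1a to Hspa8 was 0.0116 in TGFb+IL-6 GFPpos. It had group means of 0.00135 ± 0.000309 in IL-1b+IL-6+IL-23 GFPneg and 0.000396 ± 0.000123 in GFPpos (SD, n = 3 each), which did not overlap. These ratios show unequal levels of the pair, not which gene differed.

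**Figure D4:**
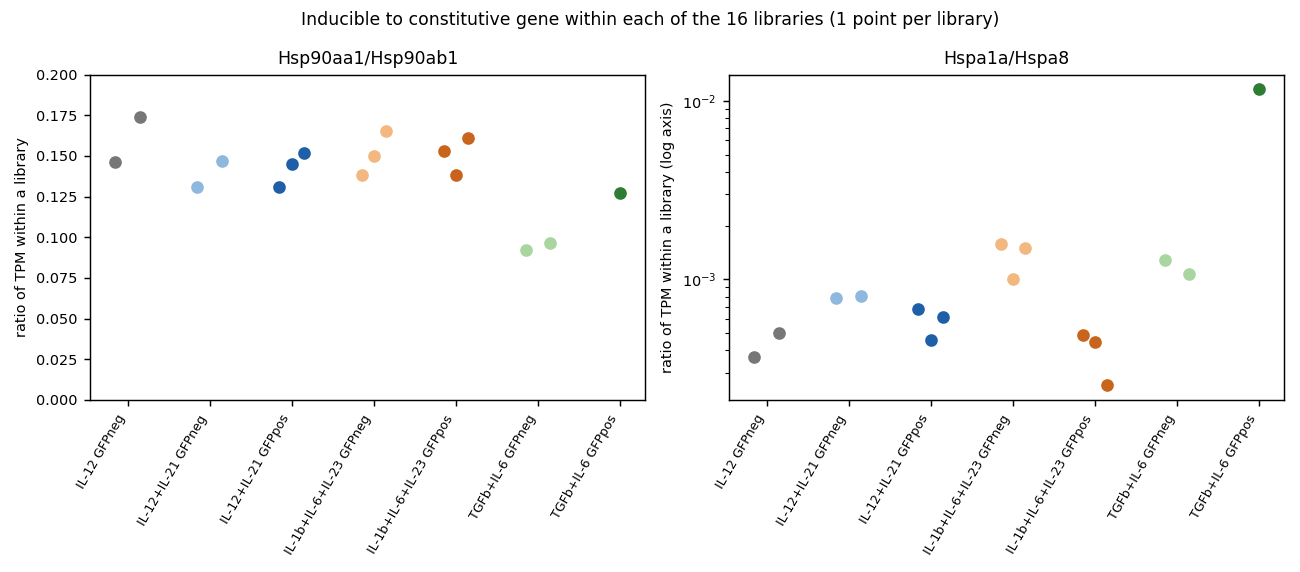
Ratio of TPM of the inducible to the constitutive gene in each of the 16 libraries (1 point each), by group: Hsp90aa1 over Hsp90ab1 on a linear axis from 0, and Hspa1a over Hspa8 on a log axis. The TGFb+IL-6 points are the lowest of the left panel (0.0919, 0.0965 and 0.127), and the TGFb+IL-6 GFPpos point is the highest of the right panel (0.0116).

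Libraries of 1 group did not deviate in the same direction for all members. Over the 15 libraries in groups of 2 or 3, each gene's deviation from its group mean was set against the deviation of the ribosomal protein share of TPM. Pearson's r was negative for 8 of the 9 tested genes, from -0.868 for Hsph1 and -0.837 for Hspa8 to -0.514 for Hspa1a. Hspe1 was the exception, with r = 0.83. Its longest coding transcript, of 774 bases, is the shortest of the 10. All 8 pairs of Hspe1 with another member had a negative r (-0.703 to -0.41), its mitochondrial partner Hspd1 included, while the 15 pairs among Hspa8, Hsp90aa1, Hsp90ab1, Hsph1, Hspd1 and Dnaja1 had r from 0.513 to 0.923. These are descriptions without a test, since the points share library composition and group means.

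**Figure D5:**
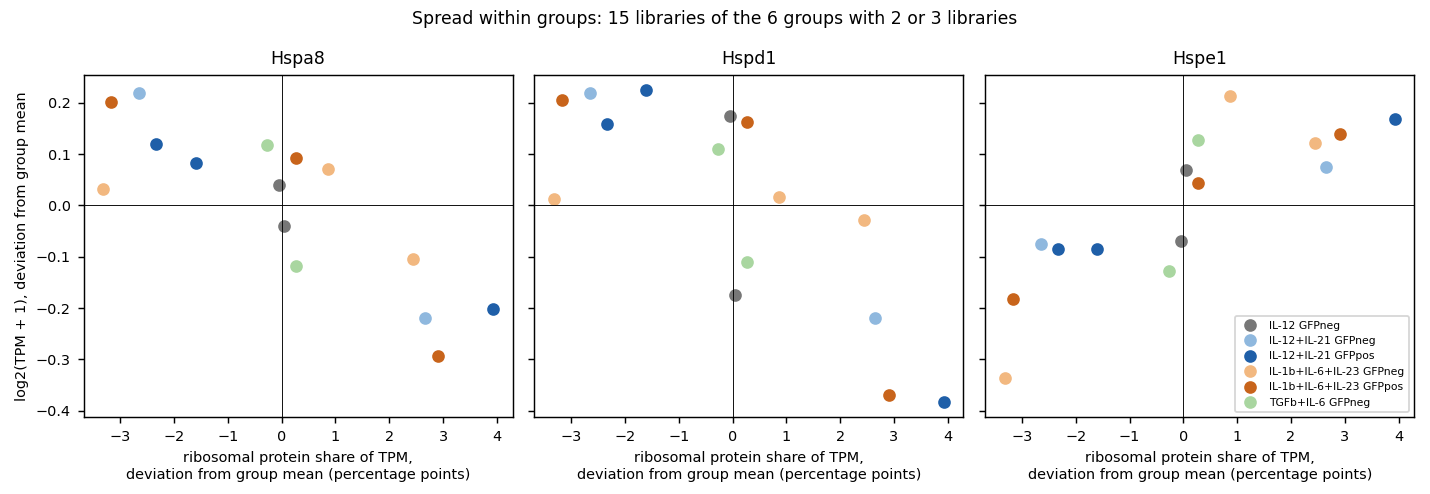
Deviation of log2(TPM + 1) from the group mean (vertical axis) against the deviation of the ribosomal protein share of TPM (horizontal axis, percentage points) for Hspa8, Hspd1 and Hspe1, with 1 point for each of 15 libraries coloured by group. Hspa8 and Hspd1 slope down (r = -0.837 and -0.783) and Hspe1 slopes up (r = 0.83).

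In the GFP comparisons few genes of any kind were called (0.156%, 0.427% and 0.323% of all genes), and the other chaperone lists held none. This covers 29 tested cytosolic chaperones and co-chaperones, 8 subunits of the CCT chaperonin, 8 mitochondrial chaperones, 18 genes of the endoplasmic reticulum and the unfolded protein response, and 12 immediate early genes, all tested with limma. The medians of the first 4 lists in IL-12+IL-21 were 0.008, -0.307, 0.203 and -0.106 beside 0.244 over all genes, and for IL-1b+IL-6+IL-23 they were -0.121, -0.266, 0.089 and -0.318 beside 0.074.

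Between TGFb+IL-6 and IL-12 GFPneg cells, where 15.8% of all genes fell, 10 of 29 cytosolic genes did, among them Ppid, an HSP90 co-chaperone (31.1 against 111 TPM, -1.81 ± 0.25), and Cacybp (76.6 against 171 TPM). Of the CCT subunits 6 of 8 fell (Cct3 at 237 against 484 TPM, Cct8 at 314 against 656), and of the mitochondrial genes 4 of 8, such as the mitochondrial HSP70 gene Hspa9 (127 against 247 TPM) and Clpp, a protease subunit (34.9 against 138 TPM). Of the endoplasmic reticulum list 4 of 18 fell, among them Calr (156 against 414 TPM), a share near that of all genes. With median-ratio scaling, where 7.77% of all genes fell, the 4 lists held 5, 0, 1 and 2 genes that fell. The cytosolic list then held 3 and the endoplasmic reticulum list 2 genes that rose, where 9.57% of all genes did. As deposited 0 genes of these lists rose, where 5.09% of all genes did.

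Relative to IL-1b+IL-6+IL-23 the TGFb+IL-6 GFPneg cells had 5, 2, 2 and 8 fallen genes in these lists, where 10.6% of all genes fell, and 2, 1, 2 and 5 with median-ratio scaling, where 7.6% did. Hspa5, the HSP70 of the endoplasmic reticulum, was at 328 against 770 TPM and Atf4, a regulator of the stress response, at 129 against 322 TPM. Relative to IL-12+IL-21 the TGFb+IL-6 GFPneg cells had 3, 1, 0 and 3 fallen genes, where 4.81% of all genes fell. With median-ratio scaling the counts were 1, 0, 0 and 1, where 3.81% of all genes fell. In IL-12+IL-21 against IL-12, where no member was called, Ppid fell (47.9 against 111 TPM; -1.22 ± 0.25, adjusted p = 0.0317, limma).

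For IL-1b+IL-6+IL-23 against IL-12, where 2.71% of all genes rose and 4.3% fell, 1 of 29 cytosolic genes rose, the small chaperone gene Hspb1 (6.2 against 0.52 TPM, 2.33 ± 0.51), and 2 fell, Ppid (48 against 111 TPM) and Hspa14 (26.7 against 57.3 TPM). Of the 18 endoplasmic reticulum and unfolded protein response genes 4 rose and 0 fell, the risen genes being Ddit3 (50.2 against 14.2 TPM), Herpud1 (77 against 38 TPM), Atf4 (322 against 173 TPM) and Manf (93.6 against 57.3 TPM). Hspa1a rose in this comparison and also, by a call lost with a pseudocount of 5 and without the filter, in TGFb+IL-6 against IL-12. There the same list held 0 genes that rose and 4 that fell, where 5.09% and 15.8% of all genes did. With median-ratio scaling it held 2 that rose and 2 that fell, where 9.57% and 7.77% of all genes did. The part of this list in the Hspa1a results was not tested. Nr4a1, an immediate early gene of T cell receptor signalling, was at 100 TPM in IL-1b+IL-6+IL-23 GFPneg against 18.6 in IL-12, 29.2 in IL-12+IL-21 and 20.3 in TGFb+IL-6. It was called in all 3 comparisons of these (2.37 ± 0.28, adjusted p = 5.72e-05; 1.76 ± 0.28, adjusted p = 0.00161; and, for TGFb+IL-6 against IL-1b+IL-6+IL-23, -2.31 ± 0.28, adjusted p = 3.76e-05, limma). Of the 12 immediate early genes, Nr4a1 alone rose against IL-12, where 2.71% of all genes rose, and against IL-12+IL-21, where 1.25% did. In TGFb+IL-6 against IL-1b+IL-6+IL-23, 2 of the 12 fell, Nr4a1 and Junb (570 against 1150 TPM), where 10.6% of all genes fell. Junb also fell in TGFb+IL-6 against IL-12 (570 against 975 TPM), where 15.8% did. The part of these genes in the Hspa1a results was not tested.

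Over the 16 libraries, the genes whose log2(TPM + 1) followed the mean of the 9 chaperones most closely, among 3668 genes with a mean of at least 10 TPM, were Creld2 (Pearson's r = 0.841), Pdia6 (0.796), Slc3a2 (0.792), Hspa5 (0.783) and Pisd-ps1 (0.78). Creld2, Pdia6 and Hspa5 are chaperones or helper proteins of the endoplasmic reticulum, and Slc3a2 is a subunit of amino acid transporters. The 16 points share groups and library composition, so the correlations are a description.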

How the data were processed

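The authors deposited 1 table of TPM, each library having the same total, so read depth is unknown. The submitters' processing notes name RSEM 1.2.31, Bowtie2 2.2.9, Trimmomatic 0.32 and GRCm38. Annotation, filters and strand use are not given in the sources used here. Per the labels' protocols, libraries were made by a modified SMART-Seq2 with Nextera XT. All 21 columns were tied to samples by name. From the deposited TPM, limma 3.58.1 (R 4.3.3) was fitted to log2(TPM + 1) with group means, no block and an empirical Bayes trend over the 16 libraries. Genes with at least 1 TPM in at least 3 libraries were tested, with Benjamini-Hochberg adjustment over all 9592 within each comparison and a threshold of 0.05. There were 10 comparisons and 3 differences of the GFP effect. Log2 changes on this scale understate changes of low genes, and TPM are shares, so a rise of some transcripts lowers others. The script was tested on simulated data. The members, the 5 lists, the library rule and the alternatives were chosen with earlier results of these data known. All members were named, and the 5 genes most like the members' mean. Genes named from a list come from the up to 4 called genes with the smallest adjusted p in a comparison. Not all of these are named in the text, and the choice among them followed no rule. Gene places are those of GENCODE M21 and promoters those of RefSeq. The highest correlation between 2 libraries was 0.974, and 0 libraries were identical. One marker gene and the sum that holds it are not reported here.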

Additional observations from a re-analysis of the deposited data

Results flagged for a closer look

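The GFP difference of Hspa1a differed between cultures by a test of the difference itself. It was larger in TGFb+IL-6 than in IL-12+IL-21 by 3.71 on the log2 scale (adjusted p = 0.0209, limma) and larger than in IL-1b+IL-6+IL-23 by 4.63 (adjusted p = 0.000754). Both values rest on the single TGFb+IL-6 GFPpos library used, in which Hspa1a was at 53.6 TPM.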

How the results depend on the processing

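Each of the 41 single-gene values, those with an unadjusted p under 0.05, was recomputed with 11 other settings and with each library left out: 598 values kept direction and side of the threshold, 56 lost and 6 gained the call, and 6 reversed, the cause of which was not tested. All reversals came with all 21 libraries: Hsp90aa1 (0.199) and Hspa1a (0.137) between GFPpos and GFPneg with IL-12+IL-21, Hspd1 with IL-12+IL-21 (1.395) and with IL-1b+IL-6+IL-23 (1.546) against IL-12, and Hsp90ab1 in TGFb+IL-6 against IL-12+IL-21 (0.109) and against IL-1b+IL-6+IL-23 (0.114). With all 21 libraries 0 members were called in any comparison. In TGFb+IL-6 against IL-12+IL-21, 2 members were called with a filter of 5 TPM and with only the libraries compared, the second being Hspd1. In TGFb+IL-6 against IL-1b+IL-6+IL-23, 2 were called with median-ratio scaling and 3 without a trend. The difference of the GFP effect between TGFb+IL-6 and IL-12+IL-21 held 0 calls with a pseudocount of 0.1. With 1 library left out, the members called numbered 0 to 1 for GFP with IL-1b+IL-6+IL-23, 0 to 1 for IL-1b+IL-6+IL-23 against IL-12, 2 in TGFb+IL-6 against IL-12, 1 to 2 against IL-12+IL-21, 2 to 5 against IL-1b+IL-6+IL-23 and 0 to 1 for that difference of the GFP effect. Where this left a group with 1 library, it was assumed to vary like the others. Limiting the 16 libraries further to those under 50% ribosomal protein TPM left out none of them, so it gave no other value. With median-ratio scaling, applied to the other chaperone lists after seeing the data, fewer of their genes fell in TGFb+IL-6, except in the mitochondrial list against IL-12+IL-21 and against IL-1b+IL-6+IL-23, where the count was the same. As deposited and with that scaling, 7 members were highest in a GFPneg group. More of the groups are GFPneg than GFPpos, and the share over all genes was not counted. As deposited the other members, Hspa1a, Hspa1b and Dnajb1, were highest in the single TGFb+IL-6 GFPpos library.

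The replicate number as a block is 1 such setting. Deviations of same-numbered libraries correlated by -0.086 to 0.202, and in no comparison with 3 pairs did every pair exceed 0.1. With 2 pairs, both exceeded 0.1 for GFP in IL-12+IL-21 (0.156 and 0.116). The same held for IL-1b+IL-6+IL-23 against IL-12+IL-21 in GFPneg cells (0.202 and 0.125). The numbers were not taken to pair the libraries, but these values cannot exclude a pairing that involves the IL-12+IL-21 libraries. With the block, 2 members were called in TGFb+IL-6 against IL-12+IL-21, with Hspd1 added (-0.78; adjusted p = 0.0364), and no other call of a member changed.

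Counts over all genes moved more. Over the 11 settings they were 6 to 51 for GFP with IL-12+IL-21 (15 as reported), 0 to 51 for GFP in IL-1b+IL-6+IL-23 (41), 0 to 250 with TGFb+IL-6 (31). Against IL-12 they were 2 to 135 in IL-12+IL-21 (73), 16 to 826 for IL-1b+IL-6+IL-23 (672) and 9 to 2073 in TGFb+IL-6 (2000). Against IL-12+IL-21 they were for IL-1b+IL-6+IL-23 3 to 467 (327) in GFPneg and 32 to 560 (476) in GFPpos, and 1 to 834 (654) for TGFb+IL-6, and 16 to 1604 (1478) for TGFb+IL-6 against IL-1b+IL-6+IL-23. The differences of the GFP effect held 0 to 3 (0), 0 to 111 (1) and 0 to 130 (8). The lowest count of each of the 10 comparisons came with all 21 libraries. Depth is unknown, so low values such as those of Hspa1b carry no interval.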
